A study of Homo sapiens with 3 samples.

Results

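The 5 olfactory receptor gene clusters examined on human chromosomes 1 and 11 held few mapped replication origins in HCT116 cells. Density of regions called by both peak callers was 0.217 ± 0.0341 (SD, n = 3 replicates) times that of the rest of the same chromosomes. The 5 clusters were defined by position in the hg19 genome build, although they were picked with earlier results of these data known. They were a window at 1q44 (chromosome 1, 247.6 to 248.9 Mb), a distal and a proximal window at 11p15 (chromosome 11, 4.38 to 5.22 Mb and 5.32 to 6.25 Mb), a window beside the centromere of chromosome 11 (55 to 56.6 Mb) and a window at 11q24 (123.6 to 124.45 Mb). Together they spanned 5.52 Mb and held 530 of the 691274 calls of the series (0.0767%), of which 106 were EPIC2 regions and 424 were MACS2 summits.

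Short nascent strand sequencing (SNS-seq) maps sites where DNA replication starts, by sequencing short RNA-primed nascent DNA that withstands lambda exonuclease. The 3 libraries came from HCT116 cells, a human line derived from a colorectal cancer, which were grown in RPMI and received no treatment. The design has a single group, so comparisons are between stretches of the genome within each replicate. The study describes them as triplicate experiments, and the labels do not name the cultures. EPIC2 finds diffuse enriched regions and MACS2 finds single-base summits. The lists held 44482 to 124492 EPIC2 regions and 63077 to 218227 summits per replicate, with fewest of both in replicate 2, and read depth is unknown.

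Olfactory receptors are G protein-coupled receptors that detect odorants. Each mature olfactory sensory neuron transcribes a single receptor allele, and in other cell types most of these genes are silent. They lie in tandem arrays in which intact genes alternate with pseudogenes, in DNA rich in A and T that is packed as heterochromatin in most tissues and commonly replicates late in S phase. Origins mapped by nascent strands in human cells, by contrast, are commonly found near active transcription start sites, CpG islands and sequences able to form G-quadruplexes. These are general traits of such arrays and of mapped origins. Chromatin, replication timing and expression of the clusters in HCT116 cells were not examined here.

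The genes and their upstream DNA were described from RefSeq annotation of GRCh38.p14. Since that build differs from hg19, gene positions could not be set against the calls, and only gene names and gene order were used to describe the clusters. The arrays to which the windows belong comprised 351 olfactory receptor genes in 4 runs, of which 177 were protein-coding and 174 were pseudogenes. Chromosomes 1 and 11 have 472 such genes in all. No window was drawn around the runs from OR10T2 to OR10AA1P (21 genes) and from OR5BA1P to OR5B21 (26 genes), so these counted with the rest. Any part of a run beyond its window also did. The run from OR2B11 to OR14I1 at the end of chromosome 1 had 56 receptor genes, with TRIM58, a ubiquitin ligase gene of late erythroid cells, and GCSAML among them. At 11p15, 103 receptor genes from OR55B1P to OR52W1 lay on both sides of the beta-globin genes HBB, HBD, HBG1, HBG2 and HBE1, with 54 on the side of lower and 49 on the side of higher coordinates. That run also enclosed the antiviral genes TRIM5 and TRIM22 and the metalloprotease gene MMP26. The run from OR4B1 to OR5BP1P, which extends beyond the window beside the centromere, had 148 receptor genes, 91 of them pseudogenes. The run from OR6X1 to OR8Q1P at 11q24 had 44.

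Promoter sequences, taken as the 250 bases before the annotated gene start, were held for 142 of the coding receptor genes. A few sequences are printed to show the base composition of the DNA in which origins were sought: the receptor gene at the median GC content of each run (OR14L1, OR52A5, OR5AP2 and OR8B8), the receptor gene with most CpG dinucleotides (OR2L13), and ACP2, a lysosomal acid phosphatase gene of chromosome 11 at the median GC content of the other coding genes. Positions in GRCh38.p14 are chr1:247616893-247617142 on the plus strand for OR14L1, chr11:5138357-5138606 on the minus strand for OR52A5, chr11:56642440-56642689 on the minus strand for OR5AP2, chr11:124445697-124445946 on the minus strand for OR8B8, chr1:247936927-247937176 on the plus strand for OR2L13 and chr11:47248815-47249064 on the minus strand for ACP2. Each runs 5′ to 3′ toward its gene, and capitals mark CpG dinucleotides.
OR14L1: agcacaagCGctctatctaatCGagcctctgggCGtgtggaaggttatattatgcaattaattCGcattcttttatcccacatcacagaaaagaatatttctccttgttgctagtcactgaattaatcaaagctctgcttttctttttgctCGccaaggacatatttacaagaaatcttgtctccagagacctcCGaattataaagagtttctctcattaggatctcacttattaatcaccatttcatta
OR52A5: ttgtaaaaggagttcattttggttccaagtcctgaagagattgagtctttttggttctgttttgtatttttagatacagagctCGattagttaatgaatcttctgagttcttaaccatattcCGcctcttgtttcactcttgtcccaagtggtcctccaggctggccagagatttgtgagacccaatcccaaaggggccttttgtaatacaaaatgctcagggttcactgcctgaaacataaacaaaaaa
OR5AP2: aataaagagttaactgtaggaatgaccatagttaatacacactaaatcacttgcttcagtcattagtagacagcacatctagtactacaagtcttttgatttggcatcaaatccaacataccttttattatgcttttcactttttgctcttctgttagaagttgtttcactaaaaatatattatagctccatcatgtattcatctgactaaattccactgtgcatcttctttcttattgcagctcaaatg
OR8B8: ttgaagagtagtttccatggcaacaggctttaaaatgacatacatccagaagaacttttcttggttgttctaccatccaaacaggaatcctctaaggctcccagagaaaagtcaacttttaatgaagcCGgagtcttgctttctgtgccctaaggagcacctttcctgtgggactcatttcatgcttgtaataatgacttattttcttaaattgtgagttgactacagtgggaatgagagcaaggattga
OR2L13: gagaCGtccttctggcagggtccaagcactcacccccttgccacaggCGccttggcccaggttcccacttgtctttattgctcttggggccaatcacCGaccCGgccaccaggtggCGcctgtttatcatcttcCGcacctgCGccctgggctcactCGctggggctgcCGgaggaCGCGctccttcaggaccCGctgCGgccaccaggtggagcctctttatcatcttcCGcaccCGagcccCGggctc
ACP2: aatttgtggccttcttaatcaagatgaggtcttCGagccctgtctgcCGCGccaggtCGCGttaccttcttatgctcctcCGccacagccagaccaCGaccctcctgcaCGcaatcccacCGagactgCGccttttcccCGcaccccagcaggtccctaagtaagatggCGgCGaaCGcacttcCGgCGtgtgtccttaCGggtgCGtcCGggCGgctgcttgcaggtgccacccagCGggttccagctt

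The 4 receptor genes at the median of their runs had 6, 2, 0 and 1 CpG in these 250 bases, in the order printed, whereas OR2L13 had 16 and ACP2 had 21. Over all 142 receptor promoters the median GC content was 36% (range 22.8 to 65.6%), against 62% (27.2 to 87.2%) over 2514 other coding genes of chromosomes 1 and 11. The median number of CpG was 1 against 17. No CpG at all was found in 43 receptor promoters (30.3%) and in 3.38% of the others. At least 10 CpG were found in 1 receptor promoter (0.704%), that of OR2L13, and in 67.2% of the others. A G-quadruplex motif, read as 4 runs of at least GGG spaced by 1 to 7 bases on either strand, was in 0 of 142 receptor promoters and in 29.4% of the others. The annotated start began with ATG in 42.3% of the receptor genes and 2.67% of the others, so for many receptor genes the annotation starts at the coding sequence and the window lies before that, not before a mapped transcription start. These figures describe reference DNA and involve no SNS-seq value.

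**Figure D1:**
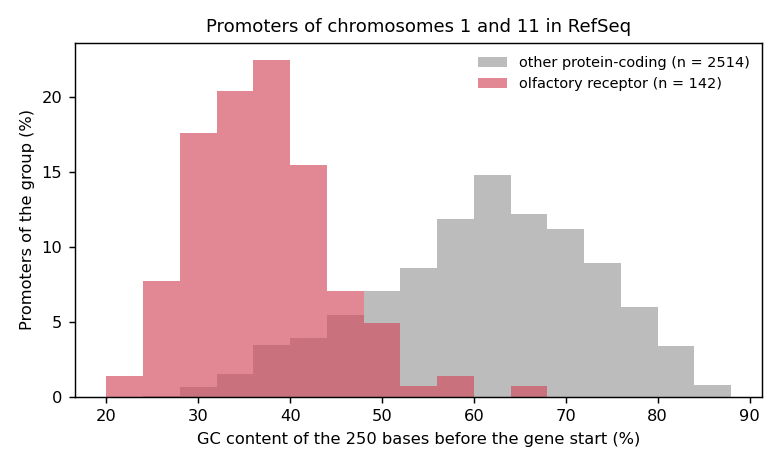
GC content in percent (horizontal axis) of the 250 bases before the RefSeq gene start, as the percent of each group's promoters per step of GC content (vertical axis), for 142 olfactory receptor genes of the 4 arrays (red) and 2514 other coding genes of chromosomes 1 and 11 (grey). Most receptor promoters lay below the bulk of the others, with medians of 36% and 62%.

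Summits in the clusters were roughly at the level of 0.46 of those elsewhere, and the reduction was present in every replicate. Replicate 1 had 196 summits in the clusters, or 35.5 per Mb, against 81.3 per Mb in the rest of chromosomes 1 and 11. Replicate 2 had 61 summits, or 11.1 per Mb, against 24.2 per Mb. Replicate 3 had 167 summits, or 30.3 per Mb, against 60.7 per Mb. The rest was measured over the 356.6 Mb of 1 Mb windows that held a call in any replicate. The ratios of 0.437, 0.456 and 0.498 (mean 0.464 ± 0.0314, SD) differed little between replicates although the number of summits differed several-fold. A two-sided exact permutation test that flips the sign of the difference within each of the 3 replicates gave p = 0.25, or 0.333 after Benjamini-Hochberg adjustment over 8 tests. That is the smallest raw p that 3 replicates allow, so no comparison here can reach 0.05 and the spread between replicates is the measure of error given. This spread shows how repeatably the same clusters were called. How much other stretches of this size vary along the chromosomes was not tested.

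EPIC2 regions were reduced further than summits. The clusters held 52, 27 and 27 regions in replicates 1, 2 and 3, or 9.42, 4.89 and 4.89 per Mb. The rest held 49.6, 16.2 and 31.4 per Mb, which gives a mean ratio of 0.216 ± 0.0761 (SD, n = 3, exact permutation p = 0.25, adjusted p = 0.333). Covered bases fell into the same order, with 1.105%, 1.297% and 1.199% of the clusters under a region against 10.3%, 4.63% and 12.4% of the rest. The ratios of covered shares were 0.107, 0.280 and 0.0967, with a mean of 0.161 ± 0.103 (SD). The level inside the clusters was thus nearly equal in the 3 replicates, and the spread of the ratio came from the rest of the chromosomes.

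Cluster regions were also shorter in replicates 1 and 3 and ranked low by EPIC2 score there. Their median width was 1000 bases in replicate 1 (range 200 to 3000) against 1800 in the rest, and 2000 in replicate 3 (800 to 6000) against 3400. In replicate 2 it was 2600 bases (400 to 6000), the same as in the rest. Ranked by EPIC2 score over chromosomes 1 and 11, the median cluster region was at percentile 17.7 in replicate 1, 47.2 in replicate 2 and 19.99 in replicate 3, with the rest near 50 in each. The mean difference was -21.7 ± 16.5 points (SD, n = 3, exact permutation p = 0.25). Among common regions alone the median percentiles were 19.4, 56.8 and 19.99 in the clusters and 55.5, 62.2 and 54.4 in the rest, lower in the clusters in 3 of 3 replicates. Width and score both belong to the same calls, and whether the score ranks low apart from the width was not tested.

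The study took as origins the calls that both callers shared and that recurred in at least 2 of its replicates, and the first of these criteria was applied to each replicate alone before the second. An EPIC2 region with 1 or more summits of that replicate inside it is called a common region, and 83 of the 106 regions in the clusters were common. By replicate, 88.5%, 51.9% and 85.2% of cluster regions were common, against 80.7%, 61.2% and 70.3% of regions in the rest. The share was thus higher in the clusters in replicates 1 and 3 and lower in replicate 2. Replicate 1 had 46 common regions (8.33 per Mb), replicate 2 had 14 (2.54 per Mb) and replicate 3 had 23 (4.17 per Mb). The rest of the chromosomes had 40.0, 9.93 and 22.1 per Mb in the same order. The ratios of 0.208, 0.255 and 0.189 gave the mean of 0.217 ± 0.0341 (SD, n = 3, exact permutation p = 0.25, adjusted p = 0.333). Inside the clusters, 76 of the 83 common regions held exactly 1 summit and 7 held more, a count that was not made for the rest.

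Fewer summits of the clusters lay in an EPIC2 region than summits elsewhere. In replicates 1, 2 and 3 the shares were 24.5%, 22.95% and 16.8%, whereas they were 59.7%, 44.7% and 44.7% in the rest. The difference was -28.3 ± 6.75 percentage points (SD, n = 3, exact permutation p = 0.25, adjusted p = 0.333), and the replicates did not overlap between clusters and rest. Each replicate thus had narrow summits in the clusters that mostly stood outside any diffuse region. The share is not independent of the densities above, since a stronger reduction of common regions than of summits lowers it.

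For the recurrence of summit positions between replicates, no difference beyond the spread between replicates was found at 250 bases, and the value depended on the setting. A summit of another replicate lay within 250 bases for 31.1%, 47.5% and 28.7% of cluster summits in replicates 1, 2 and 3, and for 31.3%, 56.2% and 27.5% of summits in the rest. The difference of -2.54 ± 5.39 percentage points (SD, n = 3, exact permutation p = 0.75, adjusted p = 0.750) was smaller than the spread between replicates. It was -5.72 ± 6.48 points against the flanks, lower in 3 of 3 replicates, and -7.97 ± 6.16 points against the rest when matches within 1000 bases counted (exact permutation p = 0.25 for both). Since summits were sparser in the clusters, fewer matches by position alone could be had there. By pairs, 24 of the 196 cluster summits of replicate 1 had a summit of replicate 2 nearby (12.2%, against 15.4% in the rest), and 43 had one of replicate 3 (21.9%, against 19.1%). Of the 61 summits of replicate 2, 24 had a summit of replicate 1 nearby (39.3%, against 51.6%, the widest gap of any pair) and 11 had a summit of replicate 3 nearby (18.03%, against 14.9%).

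Summit scores, read as the −log10 of the q-value, differed in direction between replicates. The score was ranked within each replicate over chromosomes 1 and 11. The median percentile of cluster summits was 38.5 in replicate 1 and 42.1 in replicate 2, below the 50.1 and 50.02 of the rest, and 53.9 in replicate 3, above its 49.5. The mean difference was -5.04 ± 8.43 points (SD, n = 3, exact permutation p = 0.5, adjusted p = 0.571), which did not exceed the spread between replicates. Scores in the clusters had medians of 4.03, 2.89 and 4.14, and quartiles of 2.74 and 6.22 in replicate 1, 2.19 and 4.48 in replicate 2, and 2.90 and 6.25 in replicate 3. Among the strongest summits, defined as the upper 5% of chromosomes 1 and 11 in each replicate, were 3 cluster summits of replicate 1 (1.53% of its cluster summits), 4 of replicate 2 (6.56%) and 11 of replicate 3 (6.59%). Strong summits were therefore present in the clusters in replicates 2 and 3 at about the share of the rest, and at a lower share in replicate 1.

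**Figure D2:**
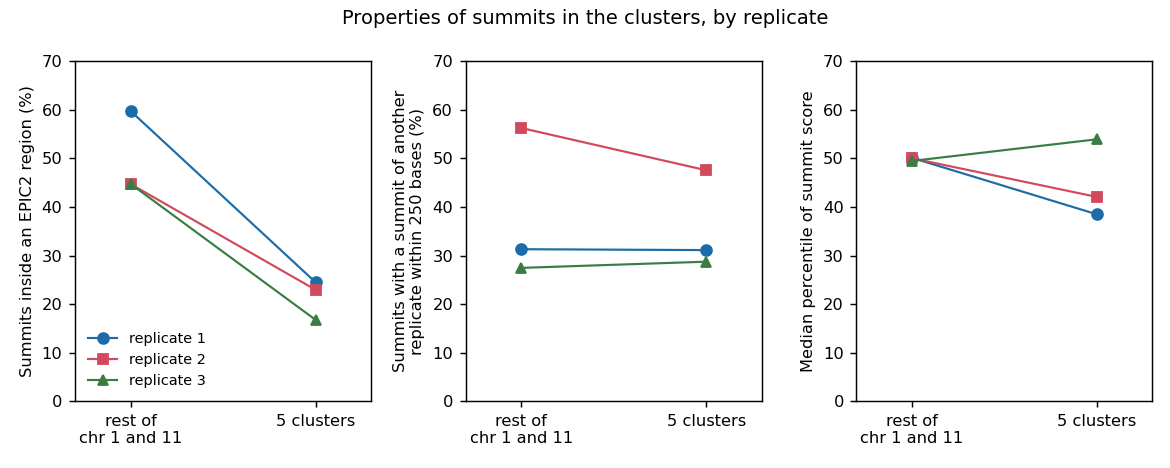
Percent of summits inside an EPIC2 region of their own replicate, percent with a summit of another replicate within 250 bases, and median score percentile (vertical axes, left to right), in the rest of chromosomes 1 and 11 and in the 5 clusters, with 1 line per replicate. The first was 44.7 to 59.7% in the rest and 16.8 to 24.5% in the clusters, whereas replicate 3 ran opposite to replicates 1 and 2 in the others.

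The 5 clusters differed among themselves. The 11p15 proximal cluster, on the side of the beta-globin genes with higher coordinates, had the highest mean densities. It had 53, 20 and 50 summits in replicates 1, 2 and 3, or 57.0, 21.5 and 53.8 per Mb, and 18, 4 and 8 common regions. Its mean of 10.8 ± 7.75 common regions per Mb (SD, n = 3) was the highest of the 5. By replicate it had 19.4, 4.30 and 8.60 per Mb, each below the value of the rest in that replicate. Its EPIC2 regions covered 3.03%, 3.10% and 3.01% of its bases, the highest share of the 5 clusters in each replicate.

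The cluster beside the centromere had the lowest mean densities. It had 38, 6 and 26 summits, or 23.8, 3.75 and 16.3 per Mb, and 6, 1 and 3 common regions, a mean of 2.08 ± 1.57 per Mb (SD, n = 3). In replicate 1 its 3.75 common regions per Mb were slightly above the 3.57 of the 11p15 distal cluster. EPIC2 regions covered 0.25%, 0.0375% and 0.425% of its bases. Every one of its 10 EPIC2 regions held a summit. None overlapped a region of another replicate, but such overlap was not counted in the rest of the chromosomes. The strongest single summit of all the clusters lay here, at position 55279190 of chromosome 11 in replicate 2, with a score of 51.7 at percentile 99.7 and no summit of another replicate within 250 bases.

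The other 3 clusters had mean densities between these. The 1q44 cluster had 41, 12 and 35 summits and 13, 4 and 3 common regions, a mean of 5.13 ± 4.24 per Mb. The 11q24 cluster had 32, 10 and 29 summits and 6, 3 and 5 common regions, a mean of 5.49 ± 1.80 per Mb. The 11p15 distal cluster had 32, 13 and 27 summits and 3, 2 and 4 common regions, a mean of 3.57 ± 1.19 per Mb. The replicates of these 3 clusters overlapped. In order of mean summit density the clusters ran from the 11p15 proximal (44.1 ± 19.6 per Mb) through the 11p15 distal (28.6 ± 11.7), 11q24 (27.8 ± 14.0) and 1q44 (22.6 ± 11.8) to the cluster beside the centromere (14.6 ± 10.1), all SD with n = 3, and neighbours in that order overlapped. Within each replicate the 11p15 proximal cluster had the highest summit density and the cluster beside the centromere the lowest. The 0.1 Mb left between the 11p15 clusters, around the beta-globin genes, had 11 summits and 3 common regions over the 3 replicates and no consensus origin.

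**Figure D3:**
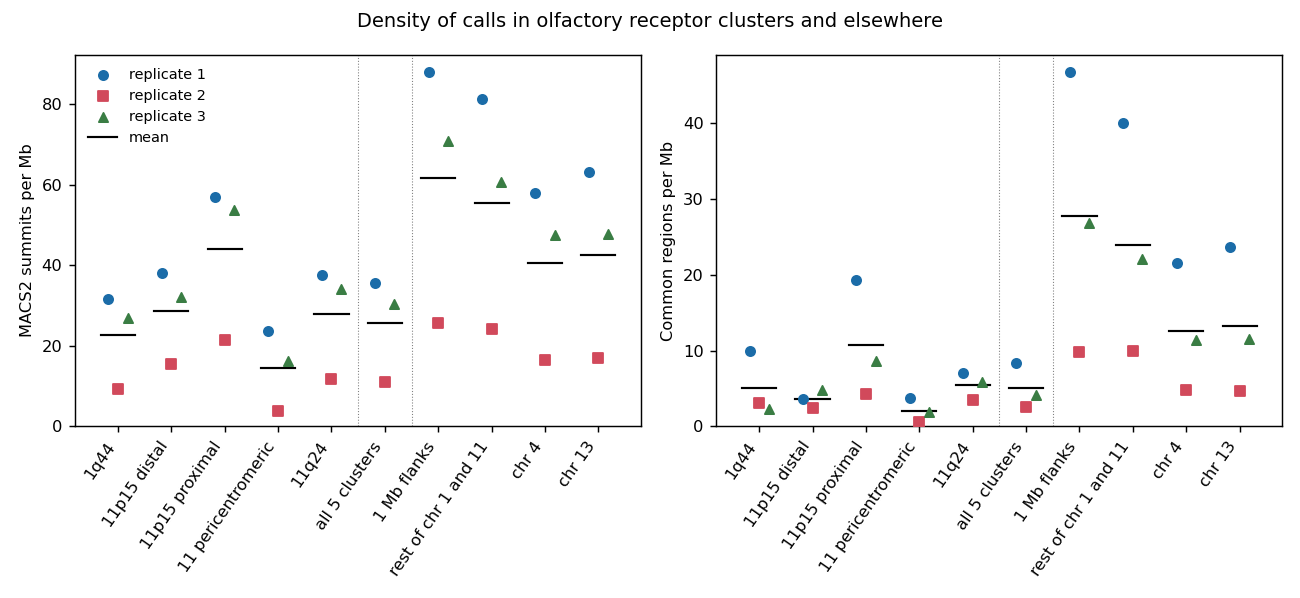
MACS2 summits (left) and common regions (right) per Mb in each cluster, all 5 clusters together, the 1 Mb flanks, the rest of chromosomes 1 and 11, and chromosomes 4 and 13. Points are replicates and bars their mean. For common regions, each replicate is lower in all 5 clusters together (2.54 to 8.33 per Mb) than in its own flanks, rest, chromosome 4 or chromosome 13.

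The DNA around the clusters had densities close to those of the rest of the chromosomes. The 1 Mb on either side of the clusters held 46.8, 9.84 and 26.8 common regions per Mb in replicates 1, 2 and 3. Relative to these flanks the clusters stood at 0.197 ± 0.0537 for common regions (SD, n = 3, exact permutation p = 0.25, adjusted p = 0.333) and at 0.420 ± 0.0150 for summits (exact permutation p = 0.25). The flanks of the cluster beside the centromere had 53.0, 20.5 and 40.0 summits per Mb, the lowest of the flanks in each replicate. Their centromeric side held few calls, and the assembly gaps of hg19 were not subtracted from it.

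Common regions were sparser deep inside the clusters than outside them, but the change did not fall at the border in every replicate. From 500 to 1000 kb outside there were 29.5 ± 21.0 common regions per Mb (SD, n = 3) and within 500 kb outside 26.3 ± 16.5. The outermost 100 kb inside held 8 ± 3, and positions 100 kb or more inside held 4.35 ± 3.01. By replicate these inner positions had 7.74, 1.99 and 3.32 per Mb, each below the 11, 5 and 8 per Mb of the outermost 100 kb in its own replicate. Longer clusters contribute more of the inner positions, and the longest, beside the centromere (1.6 Mb), had the lowest mean density. The fall with depth was not separated from this difference between clusters. In the last 100 kb outside the border there were 24.4, 4.44 and 16.7 common regions per Mb, so on crossing it replicates 1 and 3 fell and replicate 2 had a slightly higher value inside. Pooled summits were at 59.8 ± 30.8 per Mb within 500 kb outside, 42.3 ± 19.7 in the outermost 100 kb inside and 21.9 ± 11.8 further in. Across the border itself, from the last 100 kb outside to the first inside, summits went from 63.3 to 50 per Mb in replicate 1, from 11.1 to 20 in replicate 2 and from 45.6 to 57 in replicate 3, higher inside in the latter pair.

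**Figure D4:**
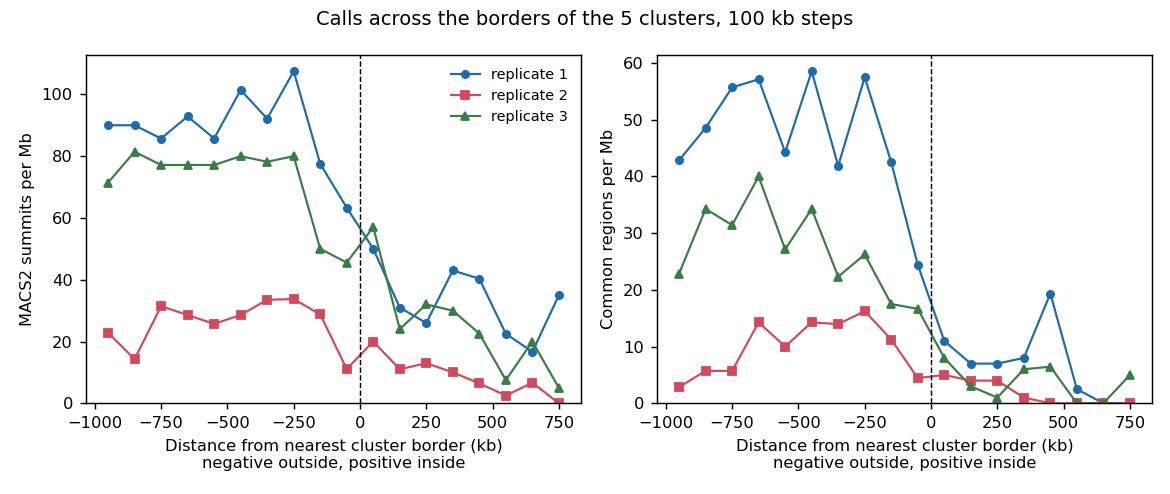
Summits (left) and common regions (right) per Mb in steps of 100 kb by distance from the nearest cluster border (horizontal axis, negative outside), with 1 line per replicate and all borders pooled. Common regions were at 24.4, 4.44 and 16.7 per Mb in the last step outside, 11, 5 and 8 in the first step inside and 7, 4 and 3 in the next, and the innermost steps rest on under 1 Mb.

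Chromosomes 4 and 13, which are poor in genes, had more calls than the clusters and fewer than the rest of chromosomes 1 and 11. Chromosome 4 had 21.5, 4.74 and 11.4 common regions per Mb in replicates 1, 2 and 3 (mean 12.5 ± 8.46, SD), and chromosome 13 had 23.7, 4.66 and 11.5 per Mb (mean 13.3 ± 9.65, SD). Each replicate was lower in the clusters than on either chromosome. Of their summits, 34.4% ± 7.87 and 34.3% ± 9.17 (SD, n = 3) lay in an EPIC2 region, between the 21.4% ± 4.09 of the clusters and the 49.7% ± 8.66 of the rest of chromosomes 1 and 11.

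Consensus origins were few in the clusters. Common regions merged over replicates and found in at least 2 of them numbered 12 in the clusters (2.17 per Mb) and 6090 in the rest (17.1 per Mb), a ratio of 0.127. The ratio was 0.0581 without replicate 2, 0 without replicate 1, 0.199 without replicate 3 and 0.441 with summits widened by 250 bases in place of EPIC2 regions, the last being close to the ratio of all summits. The clusters made up 1.52% of the length and held 0.197% of the consensus origins (exact binomial 95% interval 0.102 to 0.343%, counting error only). By windows of 10 kb, 12 of 552 cluster windows held a consensus origin, or 2.17% (exact binomial 95% interval 1.13 to 3.77%), beside 15.8% of all 36214 windows of chromosomes 1 and 11. A summit in at least 2 replicates was found in 91 of 552 cluster windows, or 16.5% (13.5 to 19.8%), beside 40.6% of all windows. The intervals for windows also hold counting error only, since they treat adjacent windows as independent. Chromosome 4 had 7.40 and chromosome 13 had 8.14 consensus origins per Mb.

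None of the 12 had a common region in all 3 replicates, whereas 17.4% of the 6090 others did. Some of the 12 nevertheless held summits of all 3 replicates, as named below. With only 12 cluster origins this contrast is weak, and it was not tested. Replicates 1 and 2 gave 8 and replicates 1 and 3 gave 4, so every one of the 12 needed replicate 1. Elsewhere the combination of replicates 1 and 3 was the most frequent, with 55.7%, against 25.3% for replicates 1 and 2 and 1.64% for replicates 2 and 3. Cluster origins were 1000 to 4000 bases wide with a median of 2200, compared with a median of 4000 elsewhere. These are widths of regions merged over replicates, and the combinations of replicates differed between clusters and rest. Whether the widths differ apart from that was not tested. Among the 106 single EPIC2 regions, 67 overlapped a region of no other replicate, 39 of 1 other and 0 of both others. Such overlap was not counted in the rest of the chromosomes, so whether it differs there was not tested.

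By cluster, 4 consensus origins lay at 1q44, 2 in the 11p15 distal, 4 in the 11p15 proximal, none beside the centromere and 2 at 11q24. At 11q24, chr11:123719801-123723200 was the one with the highest scores relative to its replicates, 11.3 in replicate 1 and 25.2 in replicate 2 (mean percentile 92.6). The other, chr11:123611601-123615400, lay 11.6 kb from the lower border and had scores of 11.5 in replicate 1 and 4.12 in replicate 2. Replicate 3 had 2 summits in the latter as well, without a common region.

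At 1q44, chr1:247622801-247624400 lay 22.8 kb from the lower border and had nearly equal scores of 9.19 in replicate 1 and 9.16 in replicate 3. On the other side, chr1:248854601-248857200 lay 42.8 kb from the upper border, with scores of 14.9 in replicate 1 and 4.91 in replicate 2. It also held a summit of replicate 3 with a score of 1.99, without a common region of that replicate. The third in rank, chr1:248787601-248788600, was the narrowest of the 12 and had scores of 20.4 and 4.34 in replicates 1 and 2. The last, chr1:247802601-247805800, had low scores of 4.03 and 2.79 in those replicates. Replicate 3 had 2 summits in it as well, with a top score of 3.30, without a common region. Within 50 kb of a cluster border lay 3 of the 12 consensus origins, the first pair named here and the one at 11.6 kb.

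In the 11p15 proximal cluster, chr11:5504601-5506400 had summits in all 3 replicates, with scores of 7.83, 28.5 and 8.91, although only replicates 1 and 2 had a common region there. The summits were at positions 5504710, 5504758 and 5504774. The region chr11:5630001-5634000, the widest of the 12, had scores of 2.05 in replicate 1 and 15.5 in replicate 3, the latter at percentile 99.6. Of the remaining pair, chr11:5949801-5951200 had scores of 9.17 and 6.70 in replicates 1 and 2, and chr11:5645401-5649000 had 4.76 and 2.29. The latter also held a summit of replicate 3 with a higher score of 6.89, without a common region of that replicate. In the 11p15 distal cluster, chr11:4791601-4792800 had scores of 12.3 in replicate 1 and 6.25 in replicate 3, and chr11:4696401-4698200 had 3.63 and 9.53 in those replicates. The former also held a summit of replicate 2 with a score of 4.48, without a common region of that replicate.

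**Figure D5:**
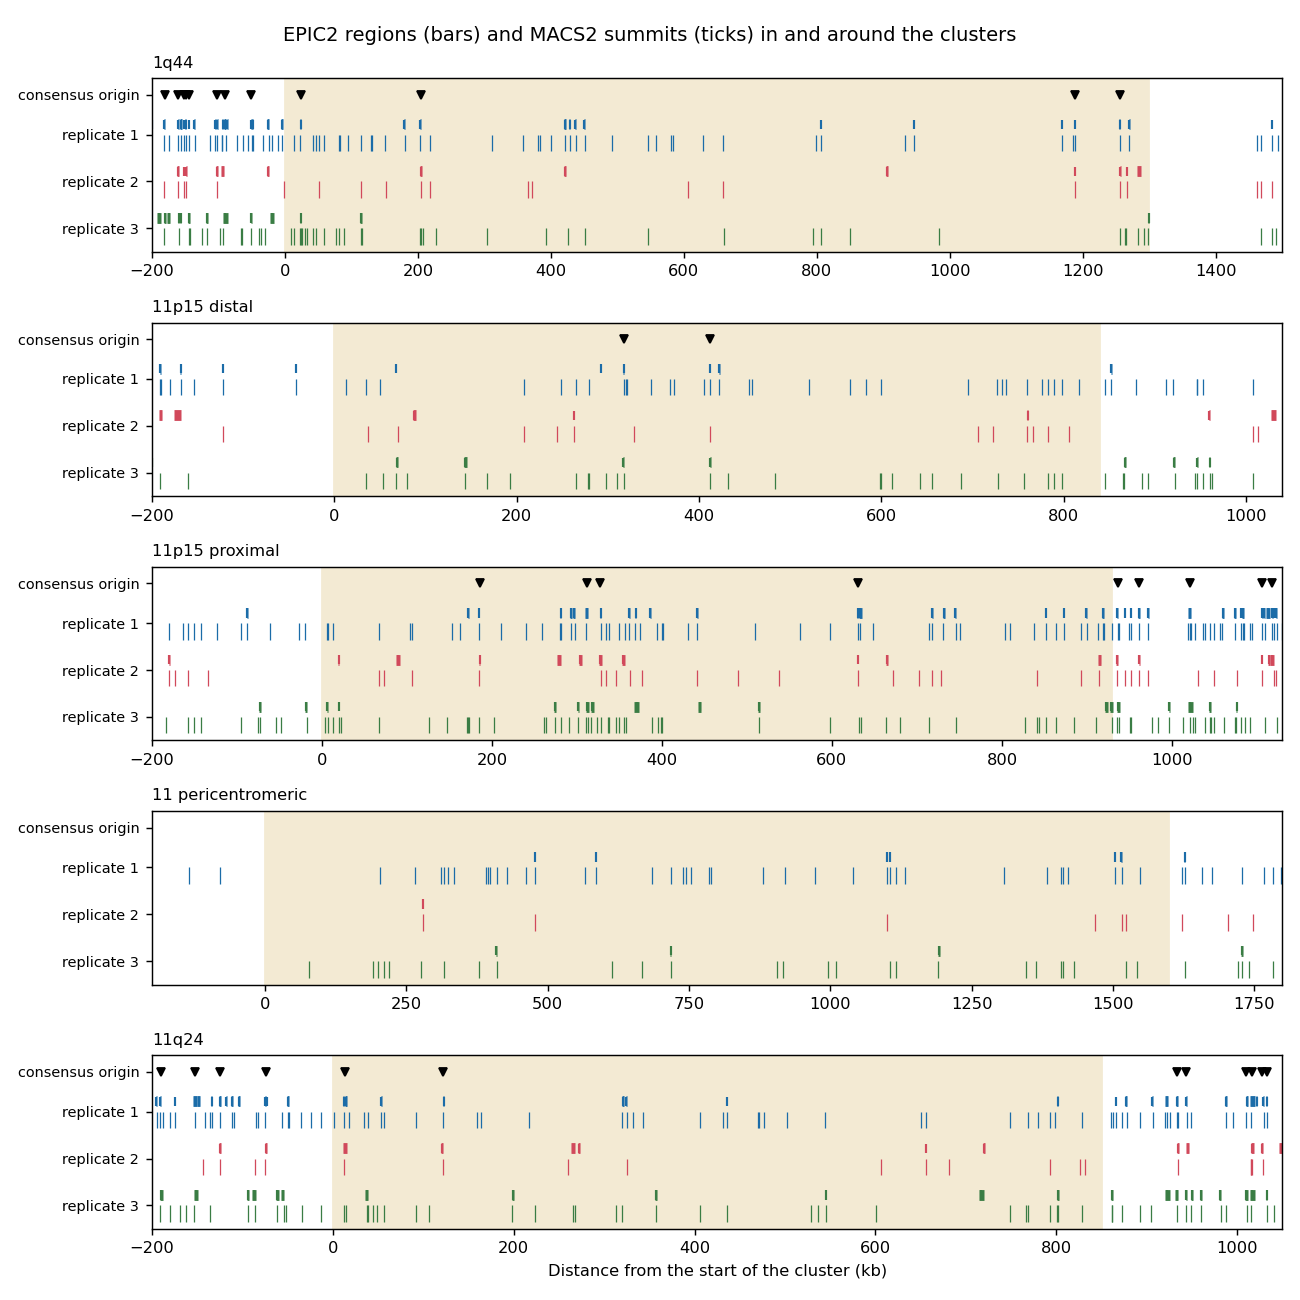
Calls along each cluster (shaded) and 200 kb on either side, by distance from the cluster start in kb. For each replicate the upper bars are EPIC2 regions, drawn no thinner than the line, and the lower ticks are MACS2 summits. Triangles mark consensus origins, of which there are 4, 2, 4, 0 and 2 within the clusters from top to bottom.

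Summits of all 3 replicates came together within 250 bases at 6 sites of the clusters, a count that was not made for the rest. The one in the 11p15 proximal cluster and that at chromosome 11 position 123612102 of 11q24, with scores of 11.5, 4.12 and 4.49, belonged to consensus origins. The other 4 did not. They were at 247713697 and 248259443 of chromosome 1 and at 5162591 and 124393378 of chromosome 11 (positions of replicate 1), and at 3 of them none of the summits lay in an EPIC2 region. At the 11q24 site the scores were 4.03, 3.66 and 3.92 in replicates 1, 2 and 3. Requiring an EPIC2 region thus removed sites of the clusters that all 3 replicates shared by summit position. Whether it removed such sites as often in the rest was not tested.

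The longest stretch without a common region of any replicate was 381.2 kb in the cluster beside the centromere (chr11:55718401-56099600), where replicates 1, 2 and 3 had 9, 0 and 4 summits. At 1q44 it was 354.4 kb (chr1:248051201-248405600, with 8, 2 and 3 summits) and in the 11p15 distal cluster 337.2 kb (chr11:4802601-5139800, with 10, 2 and 10 summits). It was 164 kb in the 11p15 proximal cluster and 144.6 kb at 11q24. Of 54 windows of 100 kb in the clusters, 29, 42 and 36 had no common region in replicates 1, 2 and 3 (53.7%, 77.8% and 66.7%), against 21.0%, 49.8% and 39.0% of windows in the rest. In percentage points, windows without any summit were less different, at 7.41%, 38.9% and 9.26% in the clusters and 4.63%, 18.7% and 7.01% in the rest. As a ratio, replicate 2 differed more for these windows than for those without a common region.

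Windows of 100 kb were ranked by summits, divided by each replicate's total on chromosomes 1 and 11 and then summed. Raw counts can give another order. By this rank the leading windows lay at a border in 3 clusters. They were the lowest 100 kb of the 1q44 cluster, with 9, 1 and 13 summits, the lowest 100 kb at 11q24, with 8, 1 and 8, and the highest 100 kb of the cluster beside the centromere, with 3, 2 and 2. In the 11p15 proximal cluster the window was interior, chr11:5620001-5720000, with 10, 5 and 15 summits, and it held the consensus origins chr11:5630001-5634000 and chr11:5645401-5649000. In the 11p15 distal cluster it was chr11:5080001-5180000, with 8, 5 and 5 summits, toward the beta-globin genes and with no consensus origin. Low counts in the clusters limit what can be said of single windows, since 1 summit more or less changes their order.

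How many reads map uniquely in these arrays of related genes was not tested, since the lists hold calls and no reads.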

How the data were processed

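The authors aligned SNS-seq reads to hg19 with Bowtie2 2.3.4.2, removed duplicates with Picard 2.18.17 and called each replicate separately with EPIC2 and MACS2 2.1.0.20151222 at a q-value of 0.1, per the labels and the study's methods. The deposited EPIC2 lists give 1 score per region, of a kind that no source used here states. The deposited MACS2 lists give summits whose score was read as the −log10 of the q-value, since the smallest is 1.00017. Control library and treatment of multi-mapped reads are not given either.

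A region was placed by its midpoint and a summit by its position. The rest of chromosomes 1 and 11 was measured over 1 Mb windows with a call in any replicate. Scores were used only as ranks within a replicate or as printed. Comparisons were made within replicates and tested by two-sided exact sign-flip permutation over 3 replicates, adjusted by Benjamini-Hochberg over 8 tests. Named regions were up to 4 consensus origins per cluster by replicate number and score percentile, the longest stretch without a common region and the 100 kb window with most summits. For the last, summits were divided by each replicate's total on chromosomes 1 and 11 before they were summed. The strongest summit, the sites with summits of all 3 replicates and the beta-globin interval were named after their values were seen. Sequences come from RefSeq (GRCh38.p14) and were matched by symbol. Alternatives covered borders, thresholds, the compared span, membership, distance and left-out replicates. The clusters and lists were chosen with earlier results of these data known. Interval functions were tested on simulated regions. Python 3.11.15, numpy 2.4.6 and scipy 1.17.1 were used.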

Additional observations from a re-analysis of the deposited data

How the results depend on the processing

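All 45 alternative values of the summit, EPIC2, covered-share and common-region ratios and of the flank comparison lay below 1. The summit ratio ran from 0.391 to 0.556 and the common-region ratio from 0.173 to 0.273. The flank width, the flank comparison with replicates left out, the omission of the 11p15 proximal cluster and the comparison with all autosomes for summit recurrence and summits inside regions were chosen after seeing the data. The number of consensus origins rested on replicate 1. Leaving out each replicate gave ratios of 0 (without replicate 1) to 0.199 (without replicate 3), with 0.0581 without replicate 2. Requiring all 3 replicates gave 0, and summits widened by 250 bases in place of EPIC2 regions gave 0.441. The share of cluster windows with a consensus origin was 0 to 1.45% with a replicate left out (0.725% without replicate 2), 10% with windows of 50 kb and 16.5% with a summit in at least 2 replicates. Over all windows the shares were 3.05%, 11.7% and 6.98% without replicates 1, 2 and 3, 42.1% for 50 kb and 40.6% for summits. Summit recurrence turned sign without replicate 1 (1.91 points) and without replicate 2 (1.56 points) and ranged from -7.73 to 1.91 over the left-out replicates. It was -7.97 points within 1000 bases and -5.29 points with summit scores of at least 2, lower than the -2.54 of the report. The cause of these changes was not tested, beyond the loss of pairs that leaving out a replicate brings. No alternative could pass 0.05, and read depth, which limits which weak origins are called, is unknown.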
